A study of Homo sapiens with 4 samples.

Results

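The mRNAs examined here encode the enzymes of cholesterol synthesis, the enzymes of fatty acid synthesis, the proteins that control both, and a few proteins of cholesterol uptake and transport. The 36 genes were chosen by symbol, and all 36 were found among the 16708 genes listed in at least 1 library. They comprised 19 genes of sterol synthesis, 8 genes of fatty acid and lipid synthesis, 5 genes of SREBP control and 4 genes of sterol uptake and transport. RNA-Seq was performed in BEAS2B, a virus-transformed human bronchial epithelial cell line, in 2 libraries of control cells (sh-Ctrl) and 2 libraries of QKI-knockdown cells (sh-QKI). The labels name no treatment for either kind of cells, and both were grown with fetal bovine serum and stably carried a retroviral short hairpin RNA, directed against luciferase in sh-Ctrl and against *QKI*, an RNA-binding splicing regulator, in sh-QKI. A single hairpin against *QKI* was sequenced, so an effect of the hairpin and an effect of QKI loss cannot be told apart. Nothing in the labels says that the replicates came from separate cultures, and a p-value here reflects how far these libraries differed from each other, possibly for technical reasons alone.

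Cholesterol is built from acetyl-CoA through mevalonate, isoprenoids, squalene and lanosterol, and fatty acids are built from the same acetyl-CoA through malonyl-CoA. Both pathways are switched on by the SREBP transcription factors, which SCAP carries from the endoplasmic reticulum for processing and which INSIG proteins hold back when sterols are plentiful. Epithelial cells use these lipids for membranes, and serum supplies cholesterol from outside the cell.

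*QKI* stood at 8.94 and 14.6 RPKM (a read count scaled by gene length and by the library total) in sh-Ctrl replicates 1 and 2, and at 2.52 and 3.85 RPKM in sh-QKI replicates 1 and 2. The targeted mRNA was therefore lower in both sh-QKI libraries than in either sh-Ctrl library. Its fitted log2 fold change was -1.72 (SE 0.38, n = 2 per group). The adjusted p of limma was 1.00 in the fit without a replicate term, which thus did not call it, and 3.16e-33 in the fit with the replicate number as a term, which did. The latter p rests on the spread of all genes at a similar level, and *QKI* alone gives 1 residual degree of freedom. Of the epithelial markers, *KRT8* (91.5 to 248 RPKM over the libraries), *KRT18* (103 to 189 RPKM) and *KRT7* were abundant. *KRT7* differed mostly between the replicate numbers, at 264 and 20.7 RPKM in sh-Ctrl and at 233 and 23.8 RPKM in sh-QKI. *KRT5* was not listed, *TP63* and *CDH1* were at or near 0, and *EPCAM* and *KRT19* were below 1 RPKM. The hepatocyte and adipocyte markers summed to between 1.07 and 2.71 RPKM, with 4 of 8 listed. Those of leukocytes and endothelium, 5 of 7 listed, summed to 18.2 and 21.5 RPKM in sh-Ctrl and to 15.6 and 17.3 RPKM in sh-QKI, lower in both sh-QKI libraries, with *PTPRC* at or near 0. The most abundant of them, *CD68*, stood at 17.3 and 16.1 RPKM in sh-Ctrl and at 14.7 and 12.2 RPKM in sh-QKI, with a fitted log2 fold change of -0.31 and an adjusted p of 0.373 in limma with the replicate number as a term. Fibroblast markers summed to 58.6 and 29.0 RPKM in sh-Ctrl and to 61.5 and 41.3 RPKM in sh-QKI, with *COL1A2* at or near 0. Most of that sum was *COL1A1*, at 51.5 and 18.6 RPKM in sh-Ctrl and at 54.1 and 29.5 RPKM in sh-QKI. Its log2 fold change was 0.07 within replicate 1, 0.65 within replicate 2 and 0.36 in the fit. The adjusted p of *COL1A1* was 0.127 in limma with the replicate number as a term. All libraries came from the cultured line BEAS2B, so a marker level here does not show that cells of its named type were present. Bulk RNA cannot tell apart fewer cells with a given mRNA and less of it per cell. The part of these markers in the results was not tested.

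The libraries held recovered totals of 20052951 and 34706058 reads in sh-Ctrl replicates 1 and 2, and 20571555 and 34862008 reads in sh-QKI replicates 1 and 2. Between 146 and 23952 recovered reads lay behind each value of the 36 genes, and a read may be counted more than once in them. Libraries with the same replicate number resembled each other more than libraries of the same group did, and each comparison is therefore given within replicate 1 and within replicate 2 beside the fitted value. The labels name no culture, day or run that a number stands for. The study used a pair of read lengths, and whether a number stands for a read length is not stated.

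QKI binds single-stranded RNA through the hexamers ACUAAC and ACUAAU. The letters ACTAAC or ACTAAT were searched on the sense strand of the GENCODE v44 canonical transcript of each gene, placed on GRCh37, the counterpart of the hg19 build used by the authors. They were present in 16 of the 36 transcripts, at 35 positions, of which 30 lay in 3′ UTRs, 2 in 5′ UTRs and 3 in coding sequence. *HMGCS1* held 7 positions and *SC5DL* 5. The following windows of 30 bases come from 4 genes described below, all lying in 3′ UTRs. These genes were picked for a low fitted log2 fold change and for holding the letters, so the windows show no link between letters and level. *INSIG1* and *SC4MOL*, also among the genes with the lowest fitted values, held none. Capitals mark the hexamer, and each window reads 5′ to 3′ along the mRNA in DNA letters.
CYP51A1, chr7:91742456-91742485, minus strand: gaataagagaatACTAATtgttttggtatg
ELOVL6, chr4:110972175-110972204, minus strand: gaagcagaggagACTAATcaaaggcaaaca
ELOVL6, chr4:110971860-110971889, minus strand: aactatatttcaACTAACttcatcttcact
ELOVL6, chr4:110969163-110969192, minus strand: atgagaaaagagACTAATatgtctagactg
FADS2, chr11:61634541-61634570, plus strand: gcagtctaacccACTAATcagttcttagat
SCD, chr10:102122916-102122945, plus strand: tctgttcagcaaACTAACcagcattcccta
SCD, chr10:102124168-102124197, plus strand: ttttgaggcatgACTAATgctttttagaaa
SCD, chr10:102124524-102124553, plus strand: gaagctaattgtACTAATctgagattgtgt

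The first question was whether any gene of lipid synthesis differed in mRNA level between sh-QKI and sh-Ctrl cells. All 36 genes passed the filter on low values (mean of at least 0.5 RPKM), and none passed the test, which was limma on log2(RPKM + 0.5) with a Benjamini-Hochberg adjusted p under 0.05 over 11829 genes. The same fit called 0.0% of all tested genes higher and 0.0% lower. At an unadjusted p under 0.05 it held 13 of all tested genes, or 0.11%, and none of the 36. With the replicate number as a term in the fit, 0.49% of all tested genes were called higher and 0.364% lower, and again none of the 36 was among them, the smallest adjusted p of limma being 0.554. With median centring besides, that fit called 0.406% higher and 0.558% lower, none of them among the 36. Voom of limma on the recovered reads with the same term called 0.465% higher and 0.685% lower and none of the 36, with a smallest adjusted p of 0.44. An exact permutation test of a single gene with 2 libraries in each group cannot give a two-sided p below 0.333.

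The measured differences were small. Fitted log2 fold changes ran from -0.28 to 0.19 over the 36 genes, and none changed by over 2-fold in either replicate number, compared with 31 of all tested genes. The 95% intervals of the fit with the replicate number as a term lay within a 2-fold change in either direction for 36 of 36 genes and held 0 for 34 of 36. The exceptions were *CYP51A1* and *INSIG1*, both on the lower side, at unadjusted p = 0.021 and 0.033 in that limma fit, which placed 2.71% of all tested genes at an unadjusted p under 0.05 on the lower side and 3.44% on the higher side. These intervals rest on the spread of all genes at a similar level, since a gene has 1 residual degree of freedom of its own in that fit.

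**Figure D1:**
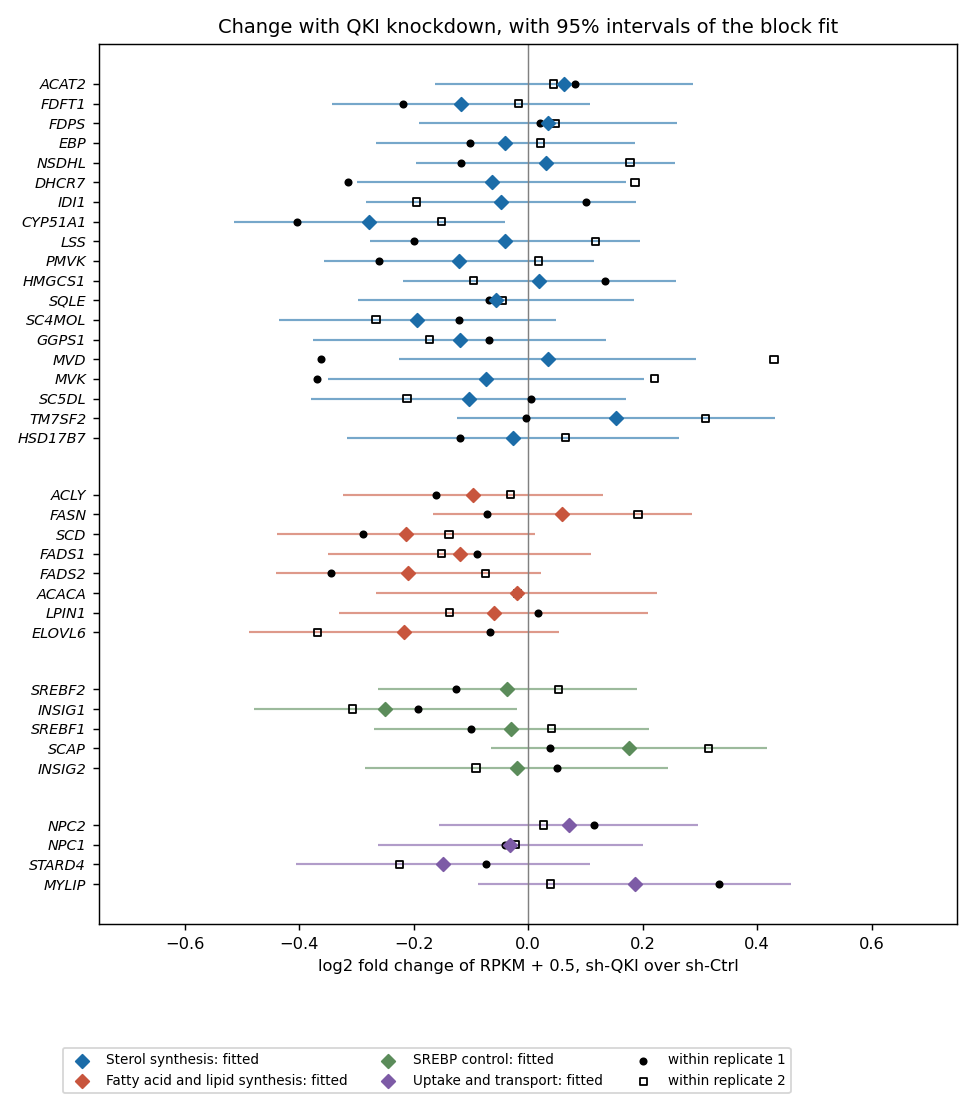
Log2 fold change of RPKM + 0.5, sh-QKI over sh-Ctrl, for the 36 genes by role. Diamonds are fitted values, lines the 95% intervals of the fit with the replicate number as a term, filled circles the change within replicate 1 and open squares that within replicate 2. Only the lines of *CYP51A1* and *INSIG1* do not reach 0, and neither gene passed the adjusted threshold.

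Directions were also counted, with no test. The difference was below 0 within both replicate numbers for 14 of 36 genes (38.9%) and for 16.6% of all tested genes, and it was above 0 within both for 5 of 36 (13.9%) and for 31.7% of all tested genes. Since the median log2 fold change of all tested genes was 0.02 within replicate 1 and 0.05 within replicate 2, the count was repeated after subtracting those medians. It then gave 19 of 36 genes lower within both numbers (52.8%, all tested genes 23.3%) and 2 of 36 higher within both (5.56%, all tested genes 23.3%). In 1 gene, *FDFT1*, both sh-QKI libraries lay below both sh-Ctrl libraries, as in 2.89% of all tested genes, and in none of the 36 did they lie above, as in 5.71% of all tested genes. In 35 of 36 genes the groups thus overlapped.

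**Figure D2:**
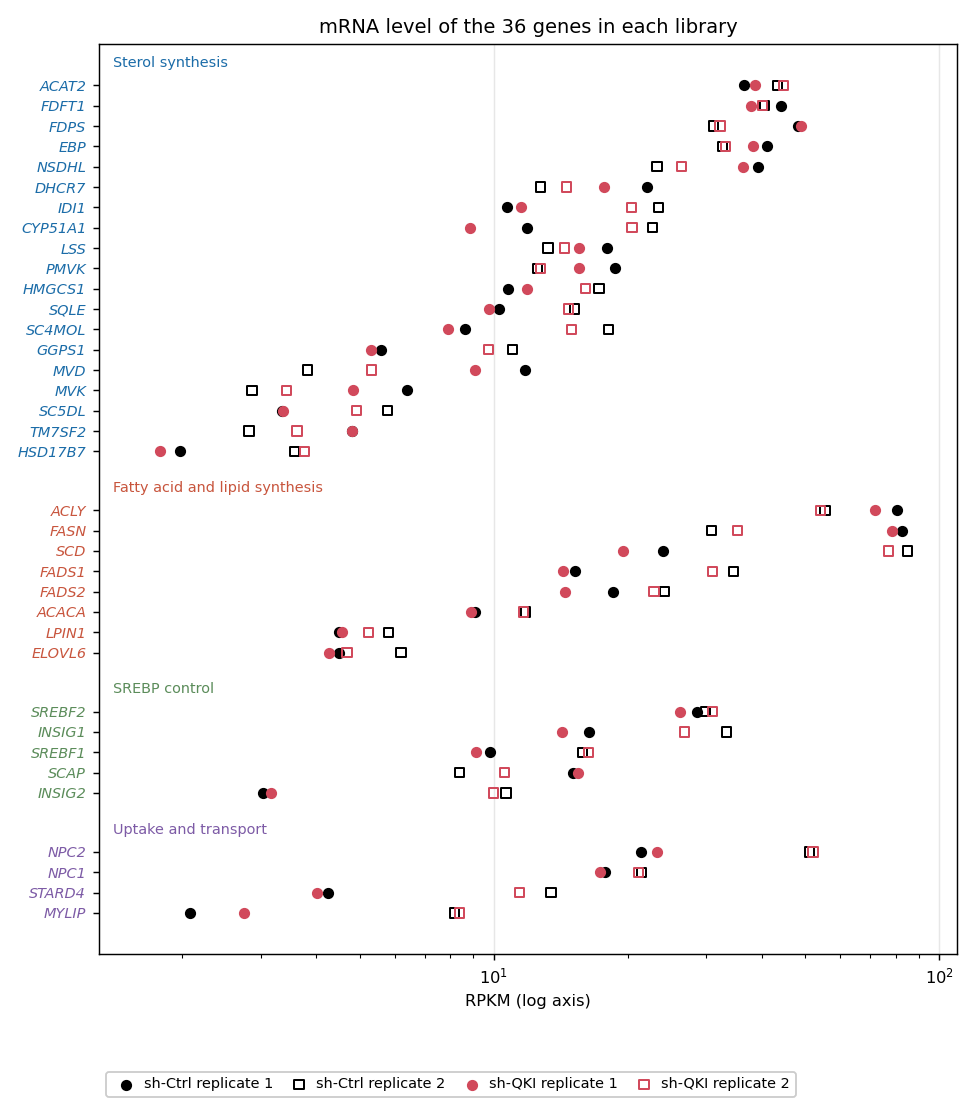
RPKM on a log axis of the 36 genes in the 4 libraries, by role and ordered by mean level. Black symbols are sh-Ctrl and red symbols sh-QKI, circles replicate 1 and squares replicate 2. For most genes the same-numbered symbols lie together, for instance *SCD* near 20 RPKM in both replicate 1 libraries and near 80 RPKM in both replicate 2 libraries.

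The 19 genes of sterol synthesis lay between 1.78 and 48.9 RPKM in single libraries. Summed over the 19, the level was 354 and 336 RPKM in sh-Ctrl replicates 1 and 2, and 328 and 336 RPKM in sh-QKI replicates 1 and 2. The median log2 fold change of the 19 was -0.05 in the fit, -0.12 within replicate 1 and 0.02 within replicate 2, so its sign depended on the replicate number. Of the 19, 5 were lower within both numbers (*GGPS1*, *FDFT1*, *SQLE*, *CYP51A1* and *SC4MOL*), 2 were higher within both (*ACAT2* and *FDPS*) and 12 changed sign between the numbers.

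The early steps join acetyl-CoA units and make mevalonate. *ACAT2* (chr6:160183077-160200144), whose product joins acetyl-CoA units in the cytosol, had the highest mean of the sterol genes and stood at 36.5 and 43.3 RPKM in sh-Ctrl and at 38.6 and 44.7 RPKM in sh-QKI (replicates 1 and 2, here and below). Each sh-QKI value was slightly above the sh-Ctrl value of its number, with a fitted log2 fold change of 0.06 (SE 0.28), and 36.3% of its exon bases overlap *TCP1* and *SOD2* on the other strand, which a kit that does not mark strand cannot separate. *HMGCS1* (chr5:43287572-43313614), the cytosolic HMG-CoA synthase, stood at 10.8 and 17.2 RPKM in sh-Ctrl and at 11.9 and 16.1 RPKM in sh-QKI. It was higher within replicate 1 (log2 0.13) and lower within replicate 2 (log2 -0.09). The kinases and the decarboxylase that turn mevalonate into isopentenyl diphosphate, *MVK*, *PMVK* and *MVD*, all had negative log2 fold changes within replicate 1 (-0.37, -0.26 and -0.36) and positive ones within replicate 2 (0.22, 0.02 and 0.43). *MVD* therefore gave both one of the lowest values within replicate 1 and the highest value of the 36 within replicate 2, at a fitted 0.03 that median centring put just below 0.

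The isoprenoid steps showed the opposite order for 1 enzyme. *IDI1*, isopentenyl diphosphate isomerase, had a log2 fold change of 0.10 within replicate 1 and -0.20 within replicate 2. *FDPS*, farnesyl diphosphate synthase, differed by 0.02 and 0.05. *GGPS1*, geranylgeranyl diphosphate synthase, differed by -0.07 and -0.17. The reads of all 3 are uncertain, since 8 annotated pseudogenes carry the name of *FDPS* and 3 that of *IDI1*. Of the exon bases of *GGPS1*, 19.5% overlap *ARID4B* or an unnamed gene model, which the authors' annotation may have lacked.

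The committed sterol steps start with squalene. *FDFT1*, squalene synthase, stood at 44.1 and 40.6 RPKM in sh-Ctrl and at 37.8 and 40.2 RPKM in sh-QKI, where the lower sh-Ctrl value exceeded the higher sh-QKI value by less than 1 RPKM. Its fitted log2 fold change was -0.12 (SE 0.26). *SQLE*, squalene epoxidase and a rate-limiting enzyme of the pathway, stood at 10.3 and 15.2 RPKM in sh-Ctrl and at 9.78 and 14.7 RPKM in sh-QKI, a difference of -0.07 and -0.04 within the numbers. *LSS*, which closes the sterol rings as lanosterol synthase, differed by -0.20 and 0.12.

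*CYP51A1* (chr7:91714301-91764117), the demethylase that acts on lanosterol, had the lowest fitted log2 fold change of the 36. Its level was 11.9 and 22.8 RPKM in sh-Ctrl and 8.86 and 20.5 RPKM in sh-QKI, so each sh-QKI library was below the sh-Ctrl library of its number while the groups overlapped. The log2 fold change was -0.28 in the fit (SE 0.55), -0.40 within replicate 1 and -0.15 within replicate 2, and the 95% interval of the fit with the replicate number ran from -0.51 to -0.04. The adjusted p was 0.554 in limma with that term, 0.346 with median centring besides, and 0.462 in voom with that term. Of the exon bases annotated for *CYP51A1*, 74.6% overlap exons of *AKAP9* or of unnamed gene models, so its reads are uncertain. Whether the authors' annotation held the unnamed models is not stated.

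The later steps trim and reshape the sterol. *SC4MOL* (now *MSMO1*, chr4:166248819-166264316), the sterol C4 methyl oxidase, stood at 8.64 and 18.1 RPKM in sh-Ctrl and at 7.91 and 15.0 RPKM in sh-QKI. Both numbers showed a lower value in sh-QKI, with log2 fold changes of -0.12 and -0.27, a fitted value of -0.19 and a 95% interval from -0.44 to 0.05. *HSD17B7*, the keto-reductase of C4 demethylation, had the lowest mean of the sterol genes, at 1.98 and 3.58 RPKM in sh-Ctrl and 1.78 and 3.77 RPKM in sh-QKI. Both sh-Ctrl values of *HSD17B7* lay between its sh-QKI values, and 2 annotated pseudogenes carry its name. *NSDHL*, *EBP* and *DHCR7*, which act at C4 demethylation, at the sterol isomerase step and at the last reduction, were each below 0 within replicate 1 (-0.12, -0.10 and -0.31) and above 0 within replicate 2 (0.18, 0.02 and 0.19). Of the exon bases of *EBP*, 52.1% overlap an unnamed gene model. Whether the authors' annotation held that model is not stated, so whether the reads of *EBP* are affected is not known. *TM7SF2*, a sterol reductase, had the highest fitted value of the 19 at 0.15, made up of 0.00 within replicate 1 and 0.31 within replicate 2. *SC5DL* (now *SC5D*), the sterol desaturase, differed by 0.00 and -0.21. Median centring put *HMGCS1*, *MVD* and *NSDHL*, all within 0.04 of 0, on the other side of 0.

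The 8 genes of fatty acid and lipid synthesis lay between 4.27 and 84.9 RPKM and included the most abundant genes of the 36. Their summed level was 239 and 254 RPKM in sh-Ctrl replicates 1 and 2, and 216 and 242 RPKM in sh-QKI replicates 1 and 2, lower in each number. The median log2 fold change was -0.11 in the fit, -0.08 within replicate 1 and -0.11 within replicate 2. Of the 8 genes, 7 had a fitted value below 0, 6 were lower within both numbers and none was higher within both. None of them passed the test, and the smallest adjusted p in limma with the replicate number as a term was 0.88.

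*ACLY* (chr17:40023170-40086795), which makes cytosolic acetyl-CoA from citrate and so feeds both pathways, had the highest mean of the 36. It stood at 80.3 and 55.5 RPKM in sh-Ctrl and at 71.8 and 54.3 RPKM in sh-QKI, with log2 fold changes of -0.16 and -0.03. *ACACA* (chr17:35441927-35766927), the acetyl-CoA carboxylase that makes malonyl-CoA, stood at 9.06 and 11.8 RPKM in sh-Ctrl and at 8.92 and 11.6 RPKM in sh-QKI. The same-numbered libraries differed by -0.02 in both numbers, and the 95% interval ran from -0.27 to 0.23. *FASN* (chr17:80036214-80056170), the fatty acid synthase, stood at 82.4 and 30.8 RPKM in sh-Ctrl and at 78.4 and 35.3 RPKM in sh-QKI. It was the only gene of this arm with a fitted value above 0 (0.06, SE 0.66), also after median centring, and it changed sign between the numbers (-0.07 and 0.19).

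The elongase and the desaturases act on the finished palmitate and on longer chains. *ELOVL6* (chr4:110967002-111120355), which lengthens palmitate, stood at 4.49 and 6.19 RPKM in sh-Ctrl and at 4.27 and 4.69 RPKM in sh-QKI, with a fitted log2 fold change of -0.22 that was -0.07 within replicate 1 and -0.37 within replicate 2. *SCD* (chr10:102106990-102124583), the desaturase that makes oleate, stood at 24.01 and 84.9 RPKM in sh-Ctrl and at 19.6 and 77.1 RPKM in sh-QKI. Its knockdown values were lower in each number (-0.29 and -0.14), with a fitted -0.21, a 95% interval from -0.44 to 0.01 and an adjusted p of 0.88 in limma with the replicate number as a term.

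*FADS2* (chr11:61560452-61634826), the first desaturase of polyunsaturated fatty acid synthesis, stood at 18.5 and 24.2 RPKM in sh-Ctrl and at 14.5 and 22.9 RPKM in sh-QKI. It differed by -0.34 within replicate 1 and -0.07 within replicate 2, with a fitted -0.21 and a 95% interval from -0.44 to 0.02. Its neighbour *FADS1* (chr11:61567099-61596790), a desaturase of the same pathway on the other strand, differed by -0.09 and -0.15. The gene models share 490 exon bases, 5.51% of those of *FADS1* and 11.2% of those of *FADS2*, so a small part of their reads cannot be assigned. *LPIN1*, a phosphatidate phosphatase of glycerolipid synthesis, differed by 0.02 and -0.14.

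The next comparison set the sterol arm against the fatty acid arm. The median of the sterol genes minus that of the fatty acid genes was 0.06 in the fit on the log2 scale. It was -0.04 within replicate 1 and 0.13 within replicate 2. The arms thus changed order between the numbers, through the sterol median, which moved from -0.12 to 0.02 while the fatty acid median was -0.08 and -0.11. No difference in response between the arms was resolved with these libraries.

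The 5 genes of SREBP control had a median log2 fold change of -0.03, with -0.10 within replicate 1 and 0.04 within replicate 2. *SREBF1* (chr17:17713713-17740316), which encodes the SREBP-1 proteins, stood at 9.84 and 15.8 RPKM in sh-Ctrl and at 9.15 and 16.3 RPKM in sh-QKI. *SREBF2* (chr22:42229109-42303310), which encodes SREBP-2, stood at 28.6 and 29.9 RPKM in sh-Ctrl and at 26.2 and 31.0 RPKM in sh-QKI. Both were slightly lower within replicate 1 (-0.10 and -0.13) and slightly higher within replicate 2 (0.04 and 0.05), and the sh-Ctrl values of *SREBF2* lay between its sh-QKI values.

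*SCAP* (chr3:47455171-47518616), the sterol-sensing escort of the SREBPs, stood at 15.1 and 8.39 RPKM in sh-Ctrl and at 15.5 and 10.6 RPKM in sh-QKI. Its log2 fold change was 0.04 within replicate 1 and 0.32 within replicate 2, with a fitted 0.18 and a 95% interval from -0.06 to 0.42. *INSIG1* (chr7:155089486-155101945), an endoplasmic reticulum protein that retains SCAP and is itself an SREBP target, stood at 16.4 and 33.3 RPKM in sh-Ctrl and at 14.2 and 26.9 RPKM in sh-QKI. It was lower within each number by a similar amount (-0.19 and -0.31), with a fitted -0.25 (SE 0.51), a 95% interval from -0.48 to -0.02 and adjusted p of 0.685 in limma and 0.44 in voom, both with the replicate number as a term. *INSIG2* (chr2:118846028-118868573), its paralogue, stood at 3.04 and 10.7 RPKM in sh-Ctrl and at 3.17 and 9.98 RPKM in sh-QKI. Unlike those of *INSIG1*, its differences had opposite signs in the numbers (0.05 and -0.09), and the difference between the paralogues was not tested.

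The 4 genes of uptake and transport had a median log2 fold change of 0.02, which median centring moved to -0.01. *MYLIP* (chr6:16129317-16148479), a ubiquitin ligase that targets lipoprotein receptors for degradation, had the lowest mean of the 4, at 2.08 and 8.16 RPKM in sh-Ctrl and 2.76 and 8.39 RPKM in sh-QKI. It had the highest fitted value of the 36, 0.19, which came mostly from replicate 1 (0.33, against 0.04 within replicate 2), and its 95% interval ran from -0.09 to 0.46. *NPC2* (chr14:74942895-74960880), which passes cholesterol out of lysosomes, stood at 21.4 and 51.2 RPKM in sh-Ctrl and at 23.2 and 52.1 RPKM in sh-QKI. It differed by 0.12 and 0.03. Its membrane partner *NPC1* differed by -0.04 and -0.02, and *STARD4*, a cytosolic sterol carrier, by -0.07 and -0.22.

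The replicate number moved these genes far more than the knockdown did. The median size of the log2 difference between replicates 2 and 1 was 0.71 in sh-Ctrl and 0.55 in sh-QKI over the 36 genes, whereas the median size of the knockdown difference was 0.11 within replicate 1 and 0.13 within replicate 2. Over all tested genes the corresponding values were 0.57 and 0.44 between the numbers, and 0.12 and 0.12 for the knockdown. Over 2-fold differences between the numbers were found for 12 of the 36 genes in sh-Ctrl, 9 of them higher in replicate 2, and for 8 of the 36 in sh-QKI. Over all 11829 tested genes they were found for 2573 genes in sh-Ctrl and for 1412 genes in sh-QKI.

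The genes did not move as a block between the numbers. *SCD* was higher in replicate 2 by 1.80 in sh-Ctrl and 1.95 in sh-QKI on the log2 scale. *FASN*, which makes the chain that SCD desaturates, was lower in replicate 2, with -1.41 in sh-Ctrl and -1.14 in sh-QKI. *MVD* was also lower, with -1.51 and -0.71. *INSIG2*, *MYLIP* and *STARD4* were higher by between 1.56 and 1.74 in sh-Ctrl, and *SREBF2* differed by 0.06 there. The sterol median was -0.12 in sh-Ctrl and 0.09 in sh-QKI, and the fatty acid median 0.37 and 0.28.

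These differences were correlated across genes with the base composition of the transcripts, with a wide spread at a given GC content. Across the 36 genes, the GC content of the canonical transcript and the difference between replicates 2 and 1 had a Pearson r of -0.76 (Spearman rho -0.74) in sh-Ctrl and -0.67 (rho -0.67) in sh-QKI. Over the 11664 tested genes with a transcript, r was -0.72 in sh-Ctrl and -0.64 in sh-QKI. The points share their libraries, and the correlations are descriptions across genes. *MVD* and *FASN* have 65.5% and 65.3% GC, *STARD4* 34.4% and *INSIG2* 36.3%. *SREBF1*, with 63.2% GC, was nevertheless higher in replicate 2 in both groups (0.66 and 0.80). At 46.5% GC each, *FDFT1* differed by -0.12, *SQLE* by 0.54 and *SCD* by 1.80 in sh-Ctrl.

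**Figure D3:**
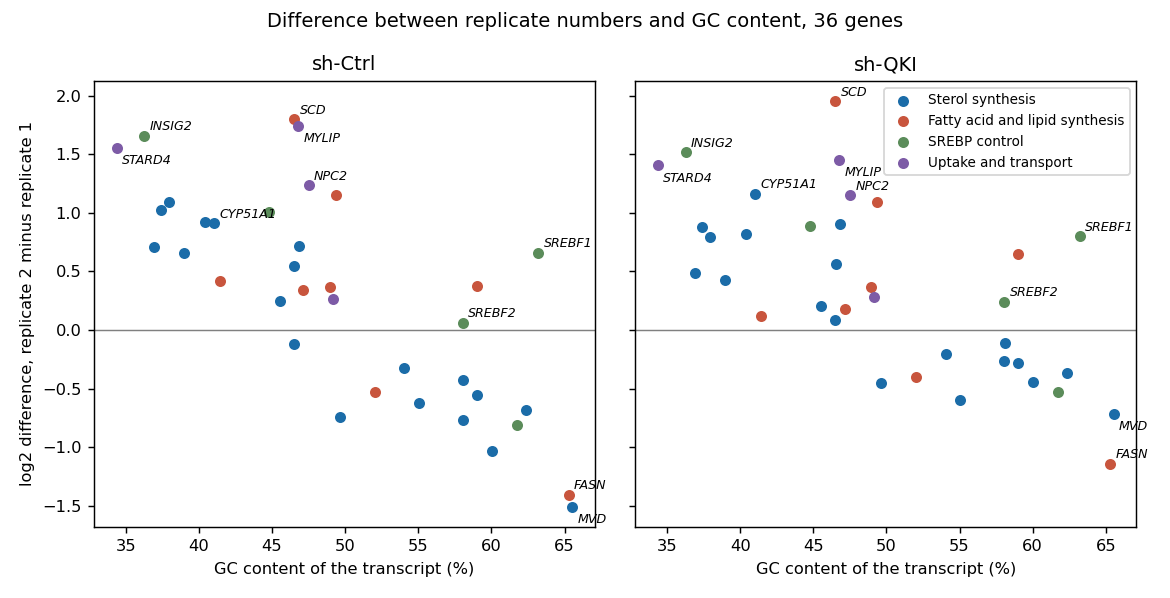
Log2 difference between replicates 2 and 1 of each group against the GC content of the transcript in percent, for the 36 genes coloured by role. Points fall from upper left to lower right in both groups (r of -0.76 in sh-Ctrl and -0.67 in sh-QKI), with *SREBF1* above the others of its GC content.

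The knockdown differences were also read along this split, with no test. Of the 13 genes that were lower in replicate 2 than in replicate 1 of sh-Ctrl, with a median GC content of 58.1%, 11 had a negative knockdown difference within replicate 1 and 11 a positive one within replicate 2. Of the other 23 genes, 15 had a negative difference within replicate 1 and 17 within replicate 2. These counts are per number, and single genes among the 23, such as *HMGCS1*, *IDI1* and *INSIG2*, did change sign between the numbers. The split is made on the sh-Ctrl libraries that enter both knockdown differences, which in part fixes such counts, and nothing is read from them. Over all 5926 tested genes of that kind the median knockdown difference was -0.05 within replicate 1 and 0.13 within replicate 2, compared with -0.16 and 0.18 for the 13. The 23 had medians of -0.07 and -0.09, where the 5903 other tested genes had 0.09 and -0.04. The part of base composition in the knockdown differences was not tested.

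Genes whose transcripts hold the QKI hexamer letters did not stand out by count. They were 44.4% of the 36 and 47.6% of the 11664 tested genes. Their median fitted log2 fold change was -0.09, compared with -0.03 for the 20 genes without the letters. Over all tested genes these medians were 0.03 and 0.04. Within replicate 1 the order was the other way round, at -0.07 with and -0.11 without the letters, and within replicate 2 the medians were -0.12 and 0.04. All tested genes also differed between the numbers in this respect, with 0.07 and -0.02 within replicate 1 and -0.00 and 0.09 within replicate 2. Transcripts with the letters were also longer, with a median of 3358.5 bases compared with 2767.5 bases, and over all tested genes 4556 compared with 2397 bases. Of the 8 genes of fatty acid and lipid synthesis, 5 held the letters, the *ELOVL6*, *FADS2* and *SCD* windows printed above among them. *INSIG1* held none, and *HMGCS1*, with the most, had a fitted log2 fold change of 0.02. A match is not evidence of binding.

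SREBPs act on sterol genes together with NF-Y, which binds CCAAT boxes, and the arms were therefore compared for these letters in RefSeq promoters (GRCh38.p14, from 250 bases before to 50 bases after the gene start). Promoters were found for 32 of the 36 genes, with 1 start used per gene, and any other start of a gene was not searched. *ACAT2*, *FDFT1*, *SQLE* and *FASN* were not matched. CCAAT on either strand was present in 12 of 16 sterol promoters (75%) but in 2 of 7 promoters of the fatty acid arm (28.6%), those of *ACLY* and *SCD*, compared with 36.98% of 9471 matched promoters of tested genes and 35.7% of all 27305 promoters. Over 1 match was found in 9 of 16 sterol promoters (56.3%) and in 14.02% of those of tested genes, with 5 matches each for *MVK* and *NSDHL* and none for *PMVK*, *IDI1*, *GGPS1* and *CYP51A1*. Of the SREBP control promoters 2 of 5 held a match, and of those for uptake and transport 3 of 4.

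**Figure D4:**
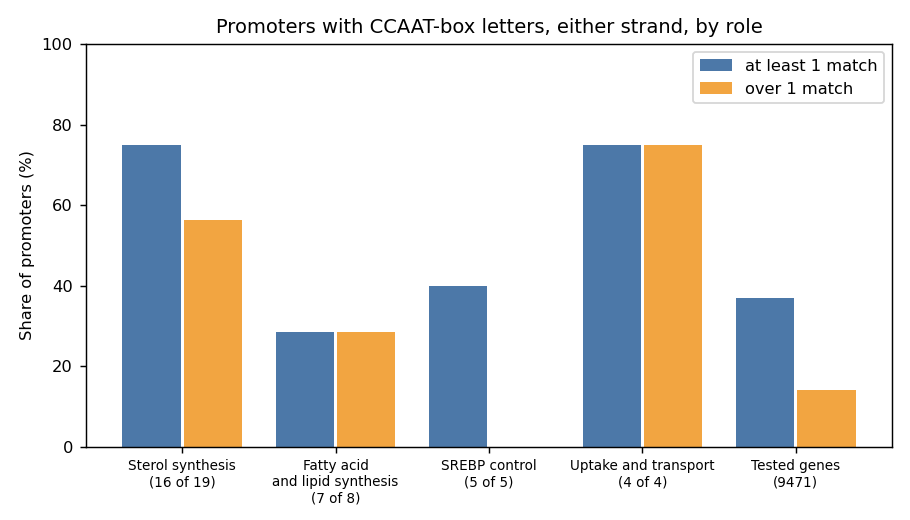
Percent of promoters that hold the letters CCAAT on either strand, at least 1 match (blue) and over 1 match (orange), by role, with the number of promoters matched. Sterol promoters held a match in 75% and fatty acid promoters in 28.6%, beside 36.98% for tested genes.

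The letters TCACNCCAC, a form of the sterol response element bound by SREBPs, were searched on both strands too. They were present in 1 of the 32 promoters, that of *SREBF2*, and in 1.11% of the promoters of tested genes. The bases upstream of the start used are printed below for *SREBF2* and for *FDPS* and *NSDHL*, sterol promoters with several CCAAT matches. *FADS2* is printed as a fatty acid promoter without a match at the start used, and any other start of it was not searched. Capitals mark CCAAT, its reverse complement ATTGG, or the sterol response element letters. The motifs do not overlap each other, apart from neighbouring CCAAT matches on opposite strands in *NSDHL*.
SREBF2, chr22:41832855-41833104, plus strand: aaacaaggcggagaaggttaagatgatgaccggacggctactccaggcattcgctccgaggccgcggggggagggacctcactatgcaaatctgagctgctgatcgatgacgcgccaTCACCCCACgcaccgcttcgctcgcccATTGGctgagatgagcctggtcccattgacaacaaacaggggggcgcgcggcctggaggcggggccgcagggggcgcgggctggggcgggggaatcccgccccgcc
FDPS, chr1:155308616-155308865, plus strand: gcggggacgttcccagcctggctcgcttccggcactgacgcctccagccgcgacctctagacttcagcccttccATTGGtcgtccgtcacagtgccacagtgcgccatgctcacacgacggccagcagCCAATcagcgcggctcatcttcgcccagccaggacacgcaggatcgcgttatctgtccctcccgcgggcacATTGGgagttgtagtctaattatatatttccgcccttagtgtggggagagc
NSDHL, chrX:152830813-152831062, plus strand: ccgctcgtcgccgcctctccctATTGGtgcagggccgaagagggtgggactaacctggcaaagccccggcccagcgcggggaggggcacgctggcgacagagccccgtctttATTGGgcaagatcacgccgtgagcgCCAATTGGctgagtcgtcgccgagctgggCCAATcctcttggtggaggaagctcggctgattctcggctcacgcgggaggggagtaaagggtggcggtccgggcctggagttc
FADS2, chr11:61815953-61816202, plus strand: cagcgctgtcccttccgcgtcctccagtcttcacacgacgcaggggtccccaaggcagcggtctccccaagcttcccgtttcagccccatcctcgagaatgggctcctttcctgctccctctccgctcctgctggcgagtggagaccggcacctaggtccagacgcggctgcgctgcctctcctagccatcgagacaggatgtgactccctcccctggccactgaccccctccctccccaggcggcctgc
With these differences in promoter letters, *FDPS* had log2 fold changes of 0.02 and 0.05 within the numbers, *NSDHL* -0.12 and 0.18, *SREBF2* -0.13 and 0.05, and *FADS2* -0.34 and -0.07. None of the 4 passed the test.

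Other genes of the same pathways were examined from lists. Of 16 other genes of sterol and isoprenoid metabolism, 15 were tested and none was called in any fit, with a median log2 fold change of 0.01. Among the largest by size were *PDSS1* (0.21) and *COQ2* (-0.18), both of ubiquinone synthesis. Of 34 other genes of fatty acid and glycerolipid synthesis, 31 were tested and none was called in any fit, with a median of 0.00. The elongase *ELOVL2* (0.30), the acyltransferase *DGAT2* (0.29) and the mitochondrial synthase *OXSM* (0.28) had the largest values, followed by the elongase *ELOVL7* (-0.27), named here after its values were seen, which was lower within both numbers (-0.32 and -0.22). *ELOVL2* stood at 12.7 and 21.5 RPKM in sh-Ctrl and at 14.9 and 28.1 RPKM in sh-QKI, higher in each number, with an adjusted p of 0.382 in limma with the replicate number as a term.

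Of the partners in SREBP processing and of the oxysterol-receptor side, 13 genes were tested and none was called in any fit, with a median of 0.03. *NR1H2*, an oxysterol receptor, had a fitted log2 fold change of -0.24. *ERLIN2* had 0.20, and *MBTPS1*, a protease that cuts SREBPs, 0.17. The protease of the second cut, *MBTPS2*, was also at 0.17.

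Of 13 other genes of sterol transport, 12 were tested, with a median of 0.02, and 1 was called in a part of the fits. *CAV1*, which encodes the cholesterol-binding coat protein of caveolae, stood at 49.4 and 59.0 RPKM in sh-Ctrl and at 35.2 and 48.5 RPKM in sh-QKI. Both sh-QKI libraries were below both sh-Ctrl libraries, as in 2.89% of all tested genes, though 48.5 RPKM was only just below 49.4 RPKM. The log2 fold changes were -0.48 and -0.28. The adjusted p was 0.0824 in limma with the replicate number as a term, 0.0402 with median centring besides, and 0.0497 in voom with that term. It was not called without that term. Of all tested genes, 0.558% were called lower in that limma fit with median centring and 0.685% in that voom fit. *VLDLR*, a lipoprotein receptor, had a fitted 0.31, and *STARD5*, a sterol carrier, 0.22.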

How the data were processed

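The deposited values are RPKM per gene, 1 table per library. Per the study's methods and labels, the authors made TruSeq libraries from total RNA and sequenced single-end reads. Sequencing was done at a pair of read lengths, and the sources do not say which libraries or replicate numbers had which length. The authors aligned the reads with Bowtie (release not given in the sources used here) to hg19 and Ensembl exon junctions. They allowed 3 mismatches and excluded ambiguous reads. A gene missing from a table was set to 0. Differences were fitted here with limma 3.58.1 (R 4.3.3) with a mean-variance trend, without a replicate term, on log2(RPKM + 0.5), keeping 11829 genes whose mean reached 0.5 RPKM. A fold change on this scale understates that of low genes. Whole reads were recovered for 100% of values (relative tolerance 1e-11) for voom with TMM scaling. Their sums over genes exceed the totals (30740875 compared with 20052951 in sh-Ctrl replicate 1). A read may thus count more than once, for several genes or within the same gene, and recovered reads can overstate depth. Which of these applies was not tested. Fits were tested on simulated data. Gene models for overlaps and GC content came from GENCODE v44 on GRCh37, later than the authors' annotation. All 4 RPKM values are given for genes with 1 sign within both numbers and a fitted size of at least 0.15, for the highest and lowest gene of each role, and for 10 central genes; *FDFT1* was added for its values. Members, lists and tests were chosen with earlier results of these data known. The values of 1 gene from the other lists are not reported here.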

Additional observations from a re-analysis of the deposited data

How the results depend on the processing

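None of the 36 genes was called under any of the 13 alternatives, and the medians of the sterol genes and of the SREBP control, uptake and transport genes together moved by less than their spread between replicate numbers under the 9 that keep all libraries. With the replicate block, limma called 101 of all tested genes in place of 0. It called 114 with the replicate block and median centring, and voom with the replicate block called 136. Same-numbered libraries deviated together (r = 0.95 across 11829 genes), but no label says what a number pairs. The fatty acid median of -0.11 became -0.14 with median centring (with and without the replicate block), -0.14 with voom and -0.14 with voom and the replicate block. Leaving out 1 library unbalances the replicate numbers. The sterol median then ran from -0.18 to -0.029, the fatty acid median from -0.31 to 0.073, that of the SREBP control, uptake and transport genes from -0.55 to 0.37, sterol minus fatty acid from -0.23 to 0.25, and the count of all genes called from 0 to 4, with none of the 36 called. The fatty acid median was -0.31 without sh-Ctrl replicate 1, 0.05 without sh-Ctrl replicate 2, 0.073 without sh-QKI replicate 1 and -0.24 without sh-QKI replicate 2. The lone sample of a group is assumed there to vary like the other group. Between 10 and 24 of the 36 genes changed sign in these fits. With all libraries, 3 changed sign with median centring, 1 with voom and 2 with voom and the replicate block. The 2 libraries a group and the spread between the numbers limit what the fit without a block can call.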
